A study of Myzus persicae with 4 samples.

Results

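In heads of the aphid Myzus persicae, 176 contigs had a low log2 ratio of nicotine to control diet in replicates 1 and 3 and a ratio near 0 in replicate 2. A contig is a transcript sequence assembled from shorter reads, here measured by 1 or 2 probes on an array. The contigs were chosen by these measured ratios: a deposited log2 ratio under -0.8 in replicates 1 and 3 and within 0.3 of 0 in replicate 2, with the control channel well above background on all 4 arrays. They made up 2.43% of the 7228 contigs that passed this filter, out of 10295 contigs on the array. Because the ratios chose them, the ratios are given as a description with no test.

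Aphids were moved from cabbage plants to a liquid mixture of amino acids and sucrose, which held 250 µM nicotine in the treated group and no nicotine in the control group. All aphids of both groups had fed on their diet for 24 h when the heads were taken, and the labels used here give no clone, age or number of heads per sample. RNA of both diets was labelled with different dyes and hybridised together on each of 4 2-colour arrays, which by their titles hold replicate 1 (arrays 1 and 3, a technical repeat), replicate 2 (array 2) and replicate 3 (array 4). Nicotine RNA carried Alexa Fluor 555 in replicate 1 and Alexa Fluor 647 in replicates 2 and 3. A description field marks array 4, not array 3, as the technical repeat. With array 4 averaged with array 1 in its place, a reading tried after the data were seen, 277 contigs met the rule, and 170 of them were among the 176.

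Nicotine is the alkaloid with which tobacco plants defend themselves against feeding insects. It activates nicotinic acetylcholine receptors, the ion channels that carry fast excitatory signals in the insect central nervous system. Insects that feed on tobacco break down or export such compounds with enzymes and carriers such as cytochrome P450s and transporters. The files and the table of gene names used here give no description of the contigs, so they are named by identifier, no role is given to any of them, and the head could not be checked against markers of its cell types. A head holds brain, muscle, fat body, salivary gland and cuticle, and in bulk RNA fewer cells of a type and less RNA per cell cannot be told apart.

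All arrays lay on 1 slide read in 1 scan, so slide and scan could not be examined as batches. In the nicotine channel 73.7% of probes on array 2 and between 86.0% and 88.0% on arrays 1, 3 and 4 stood well above background, and in the control channel between 77.5% and 79.7% did on the 4 arrays. No probe was saturated. The comparison of nicotine with control diet over all probes asked which head transcripts respond to nicotine. By limma's moderated test with a dye term over the 3 replicates, 0 of 10809 probes (0%) had an adjusted p under 0.05, and 1887 had an unadjusted p under 0.05, of which 863 were higher and 1024 lower with nicotine. None of the 176 contigs therefore passed this test. With the dye term its error rests on the difference between replicates 2 and 3. The rule asks for a gap of at least 0.5 between those ratios, so the choice by itself favours this outcome for the 176. No other probe passed either, so the outcome says nothing particular to them. Words such as lower and higher below describe measured values.

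In replicate 1 the 176 contigs had a median log2 ratio of -1.18 (quartiles -1.44 and -1.002), with values between -2.65 and -0.80. In replicate 2 the median was -0.09, with values between -0.30 and 0.30. In replicate 3 it was -1.04 (quartiles -1.26 and -0.91), with values between -5.63 and -0.80. The 2 limits on the range near 0 and the upper limit at -0.8 were set by the choice, while the spread below -0.8 was not. Over all 7228 contigs, the medians were -0.04, -0.02 and -0.06 in replicates 1, 2 and 3. The middle 50% of all contigs spanned 0.787, 0.415 and 0.685 in replicates 1, 2 and 3, so ratios in replicate 2 were the narrowest for the array as a whole and not for the 176 contigs alone. Each condition by itself was met by 11.2% of probes in replicate 1, by 64.6% in replicate 2 and by 6.45% in replicate 3.

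**Figure D1:**
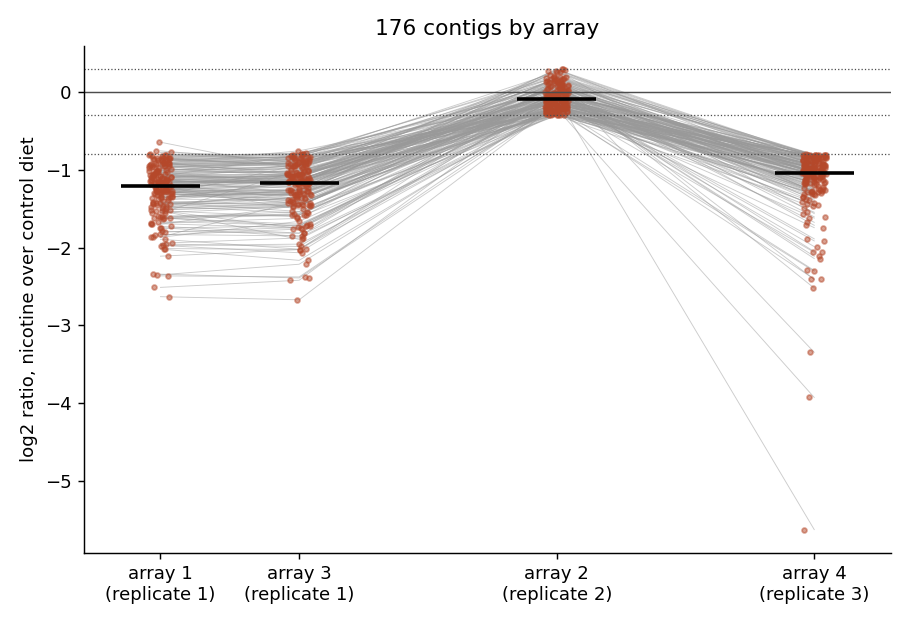
Log2 ratio of nicotine to control diet (vertical axis) for the 176 contigs on arrays 1 and 3 (replicate 1), array 2 (replicate 2) and array 4 (replicate 3), one point per contig joined across arrays, with dotted lines at the limits of the choice and black bars at the medians. The points of replicate 2 lie between -0.30 and 0.30, and 1 contig reaches -5.63 in replicate 3.

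At least a 2-fold reduction (a log2 ratio of -1 or less) was measured for 132 of the 176 contigs in replicate 1 and for 103 in replicate 3, and 88 had it in both. A log2 ratio of -2 or less occurred in 9 contigs in replicate 1, in 12 in replicate 3 and in 3 contigs in both. The ratio was lower in replicate 1 than in replicate 3 for 116 contigs and the other way for 60, with a median size of the difference of 0.20. The rule used these ratios, and no share over all contigs is given here for the counts at -1 and -2 or by replicate. Over all contigs the quartiles lay 0.787 apart in replicate 1 and 0.685 in replicate 3. A wider spread in replicate 1 favours lower ratios there, and its part in these counts was not tested. Requiring values under -0.8 in both replicates leaves out contigs low in only 1 of them, which favours a small difference. In 8 contigs the ratios of replicates 1 and 3 differed by more than 1. The repeated arrays of replicate 1 lay closer together: the size of their difference was under 0.2 in 163 of the 176, against the median size of 0.20 between replicates 1 and 3. As another measure, the SD of the difference between the repeated arrays was 0.115 over the 176 contigs and 0.107 over all contigs.

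Of the 6 contigs with the lowest mean ratio, contig6552 stood farthest out. Its log2 ratios were -1.24 and -1.26 on the arrays of replicate 1, -0.06 in replicate 2 and -5.63 in replicate 3, which are 2.38-fold and 49.6-fold lower values with nicotine in replicates 1 and 3. Its log2 level in the nicotine channel was 9.71 and 9.70 in replicate 1, 14.67 in replicate 2 and 9.83 in replicate 3. In the control channel it was 10.96 and 10.96 in replicate 1, 14.72 in replicate 2 and 15.46 in replicate 3. Both channels were thus low in replicate 1 and both high in replicate 2, and in replicate 3 the nicotine channel alone was low. Levels here are log2 intensities after background correction and normalisation, and they are compared only within a probe.

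contig3955 and contig761 had the same arrangement of levels. contig3955 had log2 ratios of -1.46 and -1.56 in replicate 1, -0.21 in replicate 2 and -3.93 in replicate 3. That last value is 15.3-fold lower with nicotine. Its nicotine levels were 13.38 and 13.34, then 16.99 and 14.29 in replicates 2 and 3, and its control levels were 14.84 and 14.90, then 17.21 and 18.23. For contig761 the ratios were -2.11 and -2.03 in replicate 1, 0.13 in replicate 2 and -3.35 in replicate 3. Its nicotine levels of 8.87 and 8.97 in replicate 1 and 9.35 in replicate 3 lay below all 4 of its control levels, which were between 10.98 and 12.69. Its nicotine level of 12.80 in replicate 2 lay above all of them.

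contig7606 had ratios of nearly one size in both replicates: -2.36 and -2.38 in replicate 1, -0.14 in replicate 2 and -2.06 in replicate 3, or 5.18-fold and 4.18-fold lower with nicotine in replicates 1 and 3. Its nicotine levels were 10.45, 10.38, 11.86 and 10.94 on arrays 1, 3, 2 and 4, and its control levels on the same arrays were 12.81, 12.76, 11.99 and 12.999. Here the control channel was lowest in replicate 2, where the nicotine channel was highest, so the ratio near 0 came with a move in both channels. contig2145 had ratios of -1.73 and -1.81 in replicate 1, 0.13 in replicate 2 and -2.52 in replicate 3, with nicotine levels of 9.04, 8.98, 12.48 and 10.03 and control levels of 10.77, 10.81, 12.34 and 12.54 on arrays 1, 3, 2 and 4. contig2317 had ratios of -2.02 and -2.16, then -0.20 and -2.30 in replicates 2 and 3. Its nicotine channel was not well above background on arrays 1 and 3, so that its ratio in replicate 1 gives only a bound.

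The 4 contigs with the brightest control channel had ratios below the median of the 176 in replicate 1. contig5895 had log2 ratios of -1.45 and -1.31 in replicate 1, -0.19 in replicate 2 and -1.21 in replicate 3. Its nicotine levels were 16.62, 16.50, 17.83 and 17.10 and its control levels 18.08, 17.84, 18.05 and 18.34 on arrays 1, 3, 2 and 4. The control level thus lay between 17.84 and 18.34, and the nicotine level was highest in replicate 2 yet below all control levels. contig802 (-1.87 and -1.40, 0.14, -1.39), contig1888 (-1.52 and -1.76, -0.22, -1.10) and contig2861 (-1.70 and -1.46, -0.06, -0.96), with ratios in the order of replicates 1, 2 and 3, all had their highest control level in replicate 3. For these 3 contigs the control levels were 18.79, 18.20 and 18.30 there, and between 17.40 and 17.78 on the other arrays.

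**Figure D2:**
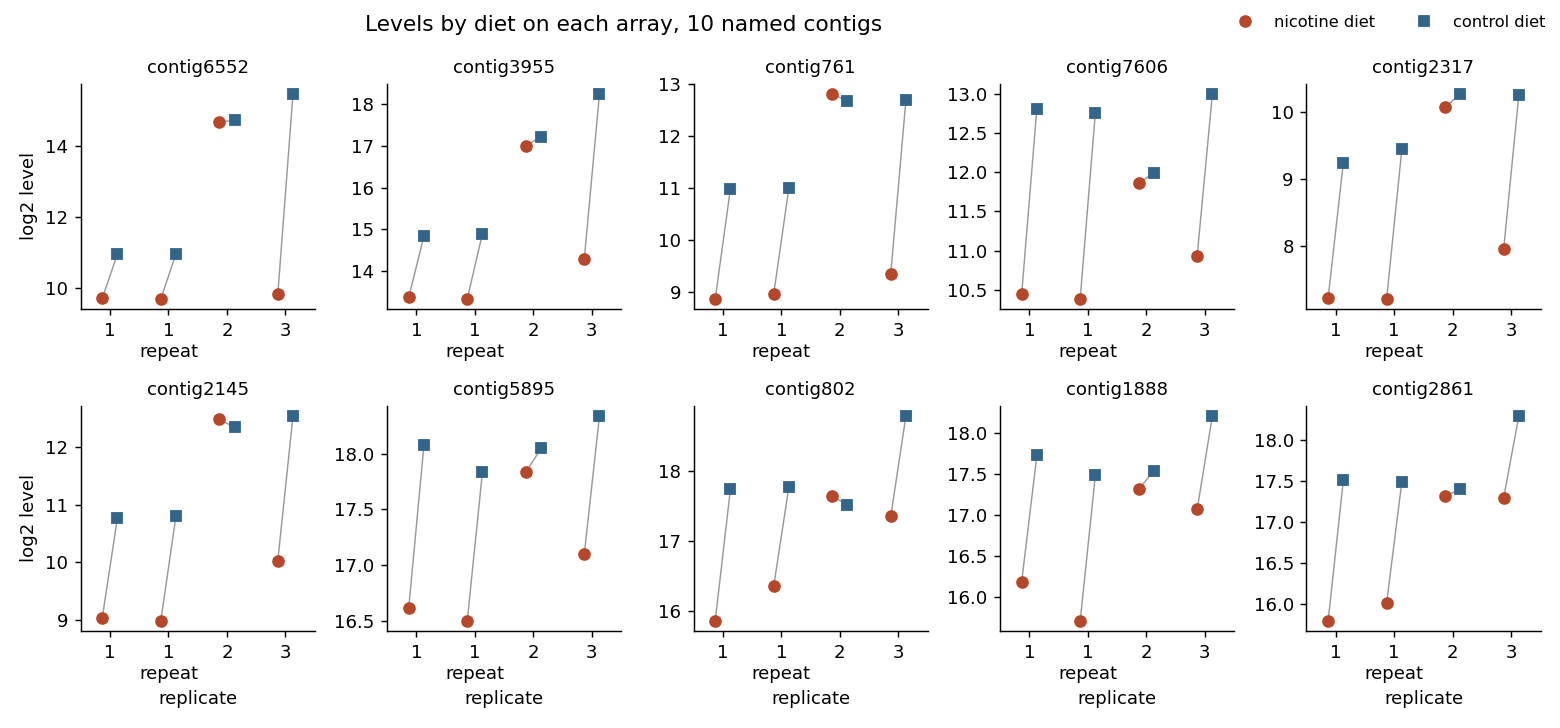
Normalised log2 level (vertical axis) on each array for the 6 contigs with the lowest mean ratio and the 4 with the brightest control channel, by replicate, with the nicotine channel left of the control channel. In contig6552 the nicotine level is 14.67 in replicate 2 and 9.83 in replicate 3, while its control levels are 14.72 and 15.46.

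The limits cut through a continuous range of values. Nearest inside -0.8 were contig7846 at -0.8004 in replicate 3, contig8986 at -0.8014 in replicate 1 and -0.8063 in replicate 3, and contig1483 at -0.802 in replicate 1. Nearest outside it were contig2864 at -0.7983, contig6537 at -0.7972 and contig415 at -0.7972, all in replicate 3. In replicate 2 contig7901 at -0.2993, contig15254 at -0.2991 and contig1077 at 0.2989 lay just inside 0.3, and contig362 at -0.3022, contig9671 at -0.3023 and contig3644 at -0.3032 lay just outside it. For contig15254 the nicotine channel was well above background on array 1 only, so its place at the limit is uncertain. The 3 contigs nearest outside each limit thus differed in size from those nearest inside by less than 0.01.

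Dropping the condition on replicate 2 gave 353 contigs under -0.8 in replicates 1 and 3, each taken once by its brightest such probe. Their median in replicate 2 was -0.24, and 172 of them (48.7%) lay within 0.3 of 0. A further 113 (32.0%) lay between -0.8 and -0.3 and 42 (11.9%) under -0.8, against 17 (4.82%) between 0.3 and 0.8 and 9 (2.55%) over 0.8. The 4 contigs that bring 172 to 176 have a brighter low probe that lay outside 0.3. Values in replicate 2 formed 1 peak below 0, and the chosen contigs were the part of it nearest to 0. Within the chosen contigs, 122 of 176 (69.3%) were below 0 in replicate 2, against 52.9% of all contigs.

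**Figure D3:**
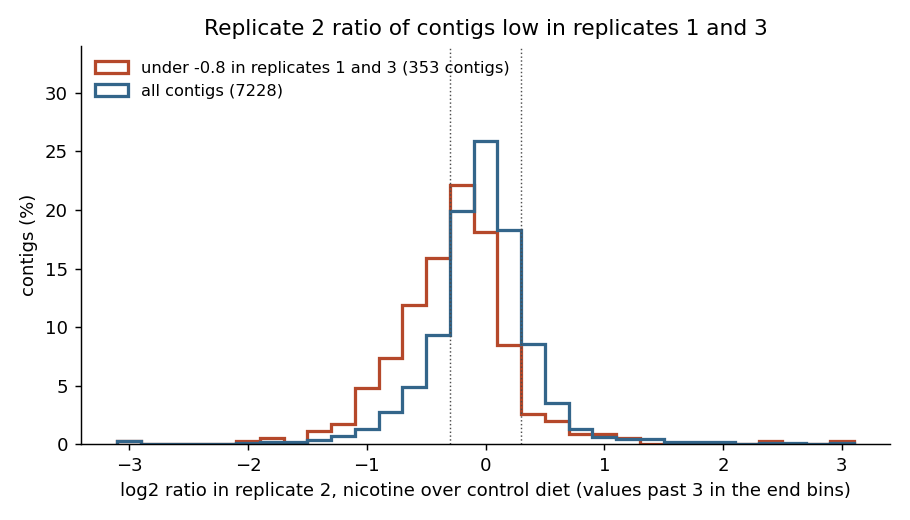
Percent of contigs (vertical axis) by log2 ratio in replicate 2 (horizontal axis) for the 353 contigs under -0.8 in replicates 1 and 3 and for all 7228 contigs, with the range within 0.3 of 0 marked by dotted lines. The 353 contigs form 1 peak with a median of -0.24, to the left of the peak of all contigs, and 172 of them lie in the marked range.

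The mirrored conditions gave groups of other sizes. Raised over 0.8 in replicates 1 and 3 and within 0.3 in replicate 2 were 223 contigs, with medians of 1.20, 0.11 and 1.05 in replicates 1, 2 and 3. Lowered in replicates 1 and 2 and near 0 in replicate 3 were 35 contigs, and lowered in replicates 2 and 3 and near 0 in replicate 1 were 3. Lowered in all 3 replicates were 46 contigs. Replicate 2 was thus the odd one for 176 low contigs, against 35 for replicate 3 and 3 for replicate 1, with the narrower spread of replicate 2 over all contigs described above standing beside these counts. Its part in them was not tested.

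A second probe of the same contig shares the RNA, array and dyes of the first, so that it is a repeat of the probe and not of the aphids. Of the 176 contigs, 99 had 1 probe and 77 had 2 on the array, and for 74 the further probe passed the filter on the control channel. All 74 further probes were below 0 in replicates 1 and 3, and 51 were under -0.8 in both. Within 0.3 of 0 in replicate 2 were 60 of the 74, a range that held 64.6% of all probes that passed the filter. In 56 of the 74 contigs the further probe was the dimmer one, and 47 of these 56 were under -0.8 in both replicates. Among the 3440 contigs with 2 such probes, the dimmer one was so for 3.28%, a share that includes contigs whose brighter probe was not low. The whole rule was met by 41 of the 56 dimmer probes. For this count and for the count below 0, no share over all contigs with 2 probes is given here. In the other 18 contigs the further probe was brighter and had failed the rule, as otherwise it would have been chosen, and 4 of these were under -0.8 in both replicates.

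The further probes had medians of -1.08, -0.05 and -0.999 in replicates 1, 2 and 3, and the chosen probes of the same contigs had -1.16, -0.05 and -1.04. The difference between the probes had an SD of 0.243, 0.138 and 0.259 in the 3 replicates. For contig3955 the further probe gave -1.53, -0.38 and -3.82, for contig761 it gave -1.78, 0.16 and -2.60, and for contig2145 it gave -1.29, 0.13 and -2.06. The low values of replicates 1 and 3 were thus measured with both probes in these 3 contigs. contig6552 and contig7606 have no further probe. contig4108, chosen after its values were seen as the lowest contig in replicate 1, had -2.65, -0.16 and -0.87 with the chosen probe and -2.55, -0.15 and -0.98 with the further one.

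The 23 contigs whose further probe was not under -0.8 in both replicates included 4 chosen because that probe lay farthest above -0.8. contig1895 had 1 probe at -1.38, 0.10 and -1.002 and the other at -0.34, -0.10 and -0.31 in replicates 1, 2 and 3. contig208 (-1.28, 0.20 and -0.29 with the further probe), contig920 (-0.40, -0.00 and -0.54) and contig2107 (-0.81, 0.11 and -0.46) were likewise closer to 0 in replicate 3 than with the chosen probe. For these 4 contigs the size of the reduction depended on the probe, and why was not tested.

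**Figure D4:**
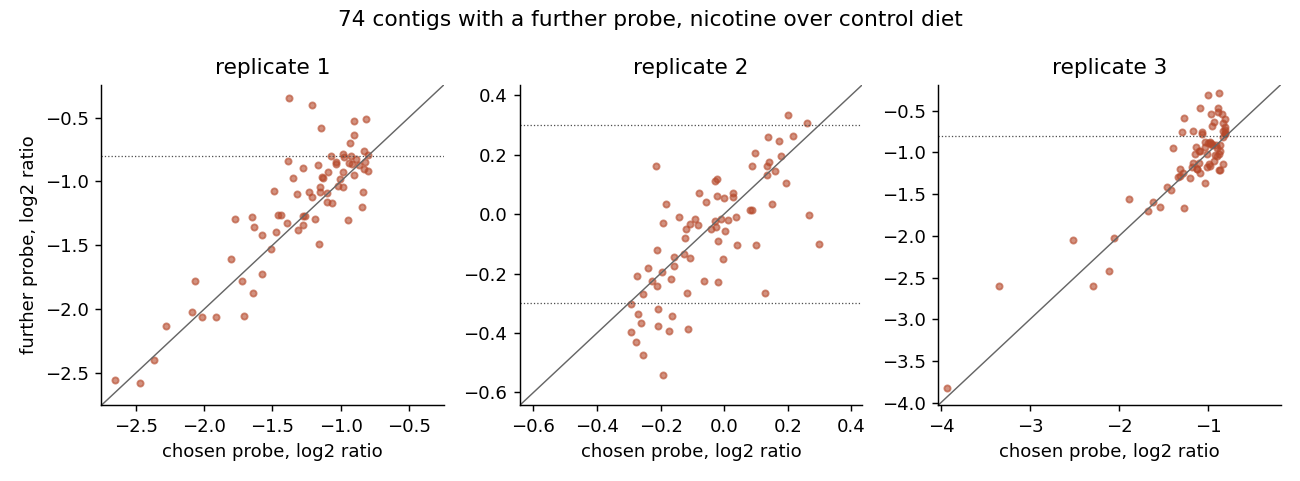
Log2 ratio of the further probe (vertical axis) against that of the chosen probe (horizontal axis) for the 74 contigs with 2 probes, in replicates 1, 2 and 3, with the line of equal values and dotted lines at the limits of the choice. All further probes lie below 0 in replicates 1 and 3, and 51 lie under -0.8 in both.

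The ratio does not say which channel moved, so levels were compared between replicates 2 and 3, which have the same dye orientation. The rule sets a gap of at least 0.5 between their ratios, which by itself pushes the nicotine level up and the control level down in replicate 2, so the counts below describe the chosen contigs and support nothing further. The nicotine level of the 176 contigs was higher in replicate 2 than in replicate 3 by a median of 0.67 (quartiles 0.32 and 0.99), and this held for 159 contigs, against 54.4% of all contigs. The control level was lower in replicate 2 than in replicate 3 by a median difference of -0.36 (quartiles -0.73 and -0.02), in 134 contigs, against 41.1% of all contigs. Over all 7228 contigs the same differences had medians of 0.05 and 0.06. The nicotine channel moved more than the control channel in 114 of the 176 contigs (64.8%), close to the 67.4% of all contigs, and the control channel more in 62.

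For the 223 raised contigs the nicotine level was lower in replicate 2 than in replicate 3 in 219, with a median difference of -0.89, and the control level differed by a median of 0.12. The control channel therefore had a larger median difference in the low contigs (-0.36) than in the raised ones. In the 46 contigs lowered in all 3 replicates, the nicotine level of replicate 2 was higher than that of replicate 3 in 23 and lower in 23, with a median difference of -0.01, and the control level differed by -0.10. Differences between these groups follow in part from how each was chosen and were not tested.

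**Figure D5:**
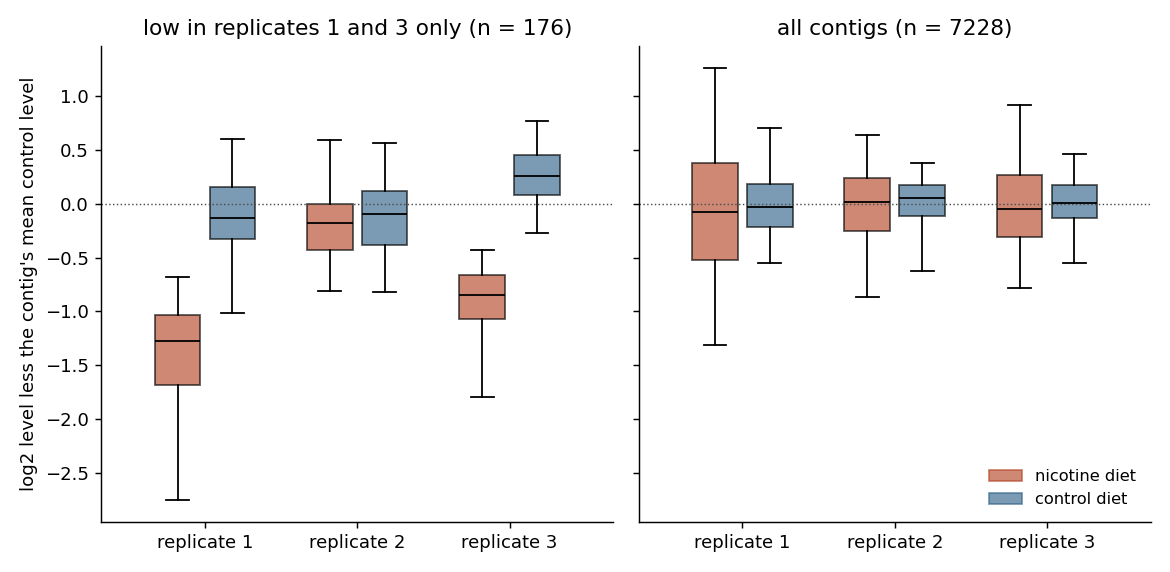
Normalised log2 level less the contig's mean control level (vertical axis) for the 176 contigs (left) and all 7228 contigs (right), nicotine left of control in replicates 1, 2 and 3; boxes span the quartiles, bars are medians and whiskers run between the 5th and 95th percentiles. Medians of the 176 are -1.28, -0.18 and -0.85 for nicotine and -0.13, -0.09 and 0.25 for control.

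Measured from each contig's own mean control level, the nicotine medians were -1.28, -0.18 and -0.85 in replicates 1, 2 and 3, and the control medians were -0.13, -0.09 and 0.25. The control level was thus highest in replicate 3, where the ratio was also low. On 144 of the 176 contigs the nicotine levels of replicates 1 and 3 lay below all 4 control levels, against 20.7% of all contigs, a count that the choice in large part sets. The nicotine level of replicate 2 lay within the range of the control levels in 110 contigs (62.5%, against 52.1% of all contigs), below it in 56 (31.8%, against 20.9%) and above it in 10 (5.68%, against 27.0%). Levels of replicate 1 were taken with the dyes the other way round, so their differences from replicates 2 and 3 cannot be told apart from dye effects.

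Control levels differed between replicates more in these contigs than in the array as a whole. The control level spanned more than 1 on the log2 scale over the 3 replicates in 60 of the 176 contigs, against 17% of all contigs, and its median span was 0.74, against 0.47 over all contigs. The nicotine level spanned more than 1 in 105 of the 176 (59.7%, against 24.5% of all contigs), with a median span of 1.19, against 0.61 over all contigs. A wide span in either channel is favoured by a rule that asks for unequal ratios.

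A small group, formed after the values were seen, had control levels in replicates 2 and 3 that were both more than 1 above that of replicate 1. It held 13 of the 176 contigs, against 2.17% of all contigs, while 3 of the 176 (1.70%) had the reverse, against 3.03% of all contigs. Its widest case was contig4084, with nicotine levels of 9.05 and 9.05 in replicate 1, 16.01 in replicate 2 and 15.75 in replicate 3. For contig4084 the control levels were 10.42 and 10.33 in replicate 1, 16.20 in replicate 2 and 16.70 in replicate 3. Both diets thus gave a far lower level in replicate 1, and within each replicate the nicotine level was the lower one.

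The same 13 contigs included contig6552, contig3955, contig761 and contig2145. Their median ratio was -1.99 in replicate 3 and -1.43 in replicate 1, against -1.03 and -1.16 in the other 163 contigs, and 6 of the 12 contigs at or under -2 in replicate 3 were among them. The group was formed by a high control level in replicate 3, among other values, and that level is the denominator of the ratio there, so the lower ratio follows in part from how the group was formed.

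The nicotine channel was well above background on all 4 arrays for 159 of the 176 contigs. It was not on array 1 for 4 (2.27%, against 0.180% of all contigs), on array 2 for 12 (6.82%, against 4.29%), on array 3 for 6 (3.41%, against 0.277%) and on array 4 for 2 (1.14%, against 0.0553%). Dim nicotine readings were thus more frequent among the 176 on every array, and array 2 held more of them than any other. A rule that asks for a low nicotine channel on arrays 1, 3 and 4 favours dim readings there. In 4 contigs (contig2317, contig15381, contig4184 and contig3049) the nicotine channel was not well above background on both arrays of replicate 1, where the ratio is only a bound. For the 12 contigs dim on array 2, the ratio near 0 in replicate 2 is likewise uncertain. On array 4 contig15261 was dim, so its -2.14 in replicate 3, counted above among those at or under -2, is also only a bound. The largest differences between the repeated arrays were those of contig1242 (-1.55 and -1.01), contig802 (-1.87 and -1.40) and contig1825 (-1.33 and -0.94). All 6 values were still under -0.8. An outlier flag from the scanner software was carried by 2 of the 176 contigs, contig1825 and contig1077. In replicates 1, 2 and 3 the further probe gave -0.97, -0.39 and -0.54 for contig1825. For contig1077 it gave -1.10, -0.10 and -1.37. The spots of the 176 contigs lay in the lower-numbered part of the array's rows in 48.3% and of its columns in 44.3%, against 49.5% and 50.5% of all contigs.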

How the data were processed

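The ratios are the authors' deposited log2 values (red over green), for which limma is the tool in the submitters' processing notes, with no steps given. Scale and direction came from a comparison of every column with that array's scanner ratio (log10 of red over green per the file headers, from Agilent Feature Extraction 10.1.1.1), with r between 0.959 and 0.969 and slopes between 0.799 and 0.846. Column medians lay between -0.013 and -0.0005, so the ratios were centred near 0, while the authors' normalisation is not given in the sources used here. Deposited intensity values per channel, uncorrected per the file headers, gave the levels: normexp with an offset of 50, loess within arrays and Aquantile between arrays, in limma 3.58.1 under R 4.3.3. Ratios of the 4 arrays were turned to nicotine over control, and arrays 1 and 3 were averaged to replicate 1. A description field marks array 4 as the technical replicate, and the titles, which name array 3, were followed. The SD of the difference between arrays 1 and 3 was 0.107 over all contigs, and no such SD is given here for arrays 1 and 4.

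Of 15744 spots, 1116 were controls. Each contig was counted once, by its brightest probe that met the rule. The members and lists were chosen with earlier results of these data known. Contigs named are the 6 with the lowest mean of replicates 1 and 3, the 4 with the brightest control channel, the 3 nearest inside and outside each limit, up to 4 whose further probe was farthest from the rule and the 3 with the largest difference between arrays 1 and 3. The limma test, two-sided with Benjamini-Hochberg adjustment at 0.05, had 1 residual degree of freedom and was tested on simulated data. The titles call the replicates biological without saying what was separate, so p-values measure only spread between these samples. With the dye term, replicate 1 adds nothing to that spread before moderation, because it alone has its dye orientation. An effect of dye therefore cannot be told apart from a difference of replicate 1 from the other replicates. Precision is limited by the number of arrays. Alternatives covered the source of the ratios, the limits, the filter, the probe per contig, the dye term and leaving out replicates or arrays. Figures were drawn with matplotlib 3.10.9.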

Additional observations from a re-analysis of the deposited data

How the results depend on the processing

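Of 72 results and settings other than those reported, 61 kept their value, 11 moved and 0 reversed. A value was kept if it lay within 0.143 on the log2 scale or, for a count, within 1.5 times. The rule bounds the medians of each replicate under every setting, so none of these could reverse. The tally was therefore in part set by the choice. The count of 176 contigs became 90 with a limit of -1 in replicates 1 and 3, and 277 when array 4 was averaged with array 1 (170 shared with the 176), an alternative chosen after seeing the data. Leaving out 1 replicate gave between 268 and 456 contigs, as fewer conditions then apply, with 353 without replicate 2. The median in replicate 1 became -1.36 with scanner log ratios and -1.37 with the limit of -1, which gave -1.19 in replicate 3. Scanner ratios gave 204 contigs, of which 145 were among the 176, and ratios recomputed from intensities gave 178, of which 172 were. Requiring the nicotine channel above background too left 159 contigs, and taking each contig's brightest probe alone gave 158. In limma's test the count at an adjusted p under 0.05 was 0 under the alternatives run. Its smallest adjusted p was 0.262 as reported, 0.219 without the dye term and 0.0509 without both the dye term and replicate 2. The count of probes at an unadjusted p under 0.05 was 1887, and between 715 and 3539 when a replicate was left out. Each array already pairs both diets in 1 ratio, so the ratios and the test were paired by array and no separate paired analysis was run. Signal over background limits the 17 contigs whose nicotine channel was dim on at least 1 array.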
